A study of Mus musculus with 96 samples.

Results

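Chromatin accessibility was compared between liver macrophage nuclei of 4 mice fasted for 16 h and of 4 mice that ate ad libitum. All mice were female and carried the MAC-INTACT tag, with which macrophage nuclei were captured on beads from whole liver before the assay for transposase-accessible chromatin (ATAC-seq). Food was withdrawn at zeitgeber time (ZT) 12, the onset of the active phase, so the 16 h mice of both groups were taken at ZT 4. The series holds 64 mice, 32 of them with macrophage libraries, and each fasting time (3, 8, 16 and 24 h) had its own fed controls. The 8 mice compared here were chosen by their labels alone, and every one of the 30170 peaks of the macrophage table was tested. The feeding label of every macrophage mouse ends in lys, a suffix the labels do not explain. They name neither the promoter that drives the tag nor the strain or age of the mice, and nothing states that the mice of a group came from separate litters or cages, so that p-values measure the spread between these mice.

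Kupffer cells, the resident macrophages of the liver sinusoids, clear particles, ageing red cells and bacterial products from portal blood, recycle haem iron and handle lipoprotein lipid. In ATAC-seq a transposase cuts DNA that is not wrapped in nucleosomes, so reads pile up at active promoters and at distal elements bound by transcription factors. Fasting raises glucocorticoids and glucagon and lowers insulin. The glucocorticoid receptor binds distal elements of genes such as Fkbp5, Ddit4, Klf9 and Tsc22d3, whereas interferon regulatory factors (IRFs) bind GAAA-rich words in promoters of antiviral genes. Each peak below is named by the nearest annotated start site, which does not show that it regulates that gene. In bulk nuclei, a site open in fewer cells and a site less open in each cell cannot be told apart.

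Reads in peaks ranged from 1729720 (fasted mouse 4) to 3793903 in the 8 libraries. The first principal component of all 32 macrophage libraries held 26.3% of the variance. Among the 8 libraries compared here, fasted mouse 1 stood farthest out on it at 54.9, followed by fasted mouse 4 at 33.8. The 4 fed mice lay between -27.2 and -9.65. No 2 of the 8 libraries shared equal reads at more than 2.9% of peaks.

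A peak was called opened or closed when fasted mice were above or below fed mice at an adjusted p under 0.05 (limma on log2(normalized reads + 2), Benjamini-Hochberg adjustment over all peaks). As deposited, 1144 peaks were opened at 16 h (3.79% of those tested) and 5271 were closed (17.5%). The balance depended on scaling. When each library's median was set to a common level, 3779 peaks were opened (12.5%) and 2625 closed (8.7%), and the median log2 difference over all peaks went from -0.10 to 0.04. Centring raised the 16 h difference of every peak by the same amount. That every peak opened as deposited was also opened after centring, and that no peak changed sides, follows largely from this shift. Under both scalings 2625 peaks were closed. Under both of these, quantile normalization, edgeR and DESeq2, 966 peaks were always opened and 1515 always closed. Median levels in the 4 fasted libraries, 51.8 to 58.1 normalized reads, were all below the 58.7 to 62.6 of the fed libraries, and the part of this shift in the excess of closed peaks was not tested. Counts also moved when 1 mouse was left out, which leaves fewer mice to test. Without fasted mouse 1, 714 peaks were opened and 3108 closed (2068 and 1501 after centring), and without fed mouse 1, 761 were opened. Of the called peaks, 203 opened and 2146 closed ones differed by at least 1.5-fold. By the adjusted p in the authors' deposited table, under 0.05, 790 peaks were opened and 3479 closed, of which 770 and 3470 were called here too. The plot of all peaks shows both scalings.

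**Figure D1:**
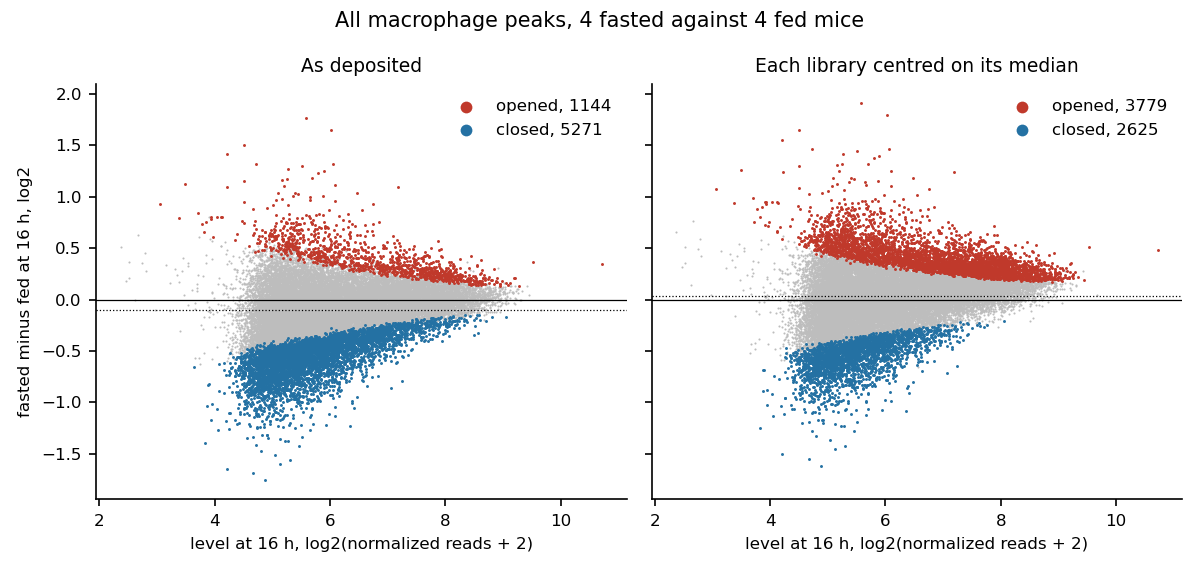
Difference between fasted and fed mice at 16 h (y axis, log2) against the mean level of each macrophage peak (x axis, log2 of normalized reads + 2), as deposited (left) and after median centring (right). Each point is 1 of 30170 peaks, red where opened and blue where closed, and the dotted line is the median of all peaks, -0.10 and 0.04; as deposited, closed peaks make up 21.0% of the lowest and 8.48% of the highest of 4 level classes of equal size.

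Sequence was available here for promoter windows only (RefSeq, GRCm38.p6, the assembly behind mm10), and 3109 peaks lay wholly inside the window of their gene. Of these, 194 were opened and 58 closed under both scalings. Among 13 short words searched on both strands of these peaks, the IRF word AAANNGAAA and the E-box CACGTG are described here. The IRF word was in 15 of the 58 closed promoter peaks (25.9%), in 5 of the 194 opened ones (2.58%) and in 98 of all 3109 (3.15%). The E-box, the word read by clock and MYC-family factors and by TFEB, was in 36 of the 194 opened promoter peaks (18.6%), in 2 of the closed ones (3.45%) and in 292 of all (9.39%). Of the rarer words, the FOX word TGTTTAC was in 9 opened peaks (4.64%) beside 1.19% of all, the AP-1 word TGANTCA in 10 opened peaks (5.15%) beside 2.86%, and the PU.1 word GAGGAAGT in 4 closed peaks (6.9%) beside 2.51%. GC content moved with these sets, as did the GC-rich SP and KLF word GGGCGG, which was in 50.0% of closed, 70.1% of opened and 71.0% of all. The median GC content was 58.2% in the closed, 64.2% in the opened and 65.2% in all windowed peaks, and its part in the word shares was not tested. The words and the promoters shown were picked after their values were seen, and a match describes letters, not a bound site.

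Shown first, because they carry the word that 25.9% of closed and 3.15% of all windowed peaks hold, are the 5 closed peaks of largest decrease that have it before every RefSeq start of their gene. Each run is the part of the peak before the RefSeq start site, 5′ to 3′ along the gene, with the IRF word or its reverse complement in capitals. Here and below, very short runs and runs that overlap any annotated RefSeq gene were passed over. Some peaks that hold the word and changed more are therefore not shown.
Mmp13: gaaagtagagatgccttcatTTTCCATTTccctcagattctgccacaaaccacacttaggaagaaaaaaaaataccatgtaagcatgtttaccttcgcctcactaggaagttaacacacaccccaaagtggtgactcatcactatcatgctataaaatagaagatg
Ifi205: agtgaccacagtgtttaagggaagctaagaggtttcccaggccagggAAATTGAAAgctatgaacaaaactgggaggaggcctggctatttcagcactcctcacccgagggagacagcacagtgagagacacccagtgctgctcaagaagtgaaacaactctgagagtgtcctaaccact
Slfn8: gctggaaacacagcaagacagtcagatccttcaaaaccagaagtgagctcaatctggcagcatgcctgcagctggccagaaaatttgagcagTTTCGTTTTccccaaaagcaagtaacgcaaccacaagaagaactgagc
Tlr11: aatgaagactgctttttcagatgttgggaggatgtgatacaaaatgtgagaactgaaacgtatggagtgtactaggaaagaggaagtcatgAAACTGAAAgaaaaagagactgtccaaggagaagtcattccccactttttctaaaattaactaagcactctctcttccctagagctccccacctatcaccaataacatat
Vsig4: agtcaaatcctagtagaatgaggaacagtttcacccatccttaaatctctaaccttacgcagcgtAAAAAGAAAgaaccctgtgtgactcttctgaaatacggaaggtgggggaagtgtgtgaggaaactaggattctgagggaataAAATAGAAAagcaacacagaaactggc

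Among runs kept by the same rule, the 3 opened peaks of largest increase with the E-box before every RefSeq start follow, predicted genes aside. They have the same form, with the E-box in capitals.
Tnpo2: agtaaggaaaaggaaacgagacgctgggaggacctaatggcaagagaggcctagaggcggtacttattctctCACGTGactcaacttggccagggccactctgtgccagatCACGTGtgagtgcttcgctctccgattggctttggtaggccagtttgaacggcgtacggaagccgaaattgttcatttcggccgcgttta
Dvl2: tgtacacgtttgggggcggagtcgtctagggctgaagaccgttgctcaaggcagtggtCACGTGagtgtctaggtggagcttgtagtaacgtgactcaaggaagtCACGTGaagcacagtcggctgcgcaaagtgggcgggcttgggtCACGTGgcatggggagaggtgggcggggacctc
Zfp747: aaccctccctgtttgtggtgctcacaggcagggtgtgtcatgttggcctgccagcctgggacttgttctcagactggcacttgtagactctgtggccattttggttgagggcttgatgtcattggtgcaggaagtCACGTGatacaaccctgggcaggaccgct

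The closed runs lie at chr9:7272348-7272513 (plus strand), chr1:174031756-174031935 (minus strand), chr11:83020811-83020950 (minus strand), chr14:50357702-50357902 (plus strand) and chrX:96293439-96293612 (minus strand), in the order shown. Ifi205 belongs to the interferon-inducible nucleic acid sensor family, and its promoter peak held 61.9, 46.2, 46.2 and 48.9 normalized reads in fed mice 1 to 4 and 19.3, 20.8, 27.0 and 34.2 in fasted mice 1 to 4. No fasted mouse reached the lowest fed mouse, and the log2 difference was -0.97 ± 0.18 (SE, limma adjusted p = 0.000151). Vsig4, the complement receptor that marks Kupffer cells, held 42.5, 35.9, 42.3 and 45.2 in fed and 18.6, 22.2, 30.3 and 31.2 in fasted mice, again without overlap (log2 -0.68 ± 0.17, adjusted p = 0.00319). Mmp13, a collagenase, fell by 1.02 on the log2 scale, Slfn8, a Schlafen family member, by 0.73, and Tlr11, a Toll-like receptor for parasite profilin, by 0.71.

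The opened runs lie at chr8:85036666-85036866 (plus strand), chr11:70000411-70000591 (plus strand) and chr7:127376051-127376214 (minus strand). Their changes were small. Tnpo2, a nuclear import receptor, held 136, 153, 141 and 145 normalized reads in fed mice and 174, 180, 153 and 211 in fasted mice, so that the lowest fasted mouse (152.9) stood just above the highest fed mouse (152.5) (log2 0.31 ± 0.09, limma adjusted p = 0.00805). Dvl2, a Wnt pathway scaffold, rose by 0.28 and Zfp747 by 0.27 on the log2 scale.

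Promoters and distal sites did not share the same balance. Within 1 kb of a start site, 5.13% of 14138 peaks were opened and 8.14% closed, with a median log2 difference of -0.02. Between 1 and 10 kb, 3.22% were opened and 20.8% closed, between 10 and 50 kb 2.43% and 26.0%, and beyond 50 kb 1.93% and 33.7%, with a median of -0.30. After centring the order held, from 18.4% opened and 2.04% closed within 1 kb to 5.47% and 20.3% beyond 50 kb. Without fasted mouse 1, 5.01% were closed within 1 kb and 19.3% beyond 50 kb (1.22% and 12.2% after centring). Start-site peaks were also the highest, at a median of 100 normalized reads against 42.2 beyond 50 kb. Within the lowest of 4 level classes of equal size the closed share still went from 7.74% near start sites to 33.0% beyond 50 kb, and within the highest from 6.9% to 17.9%. Peaks are not replicates, so these shares have no test.

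**Figure D2:**
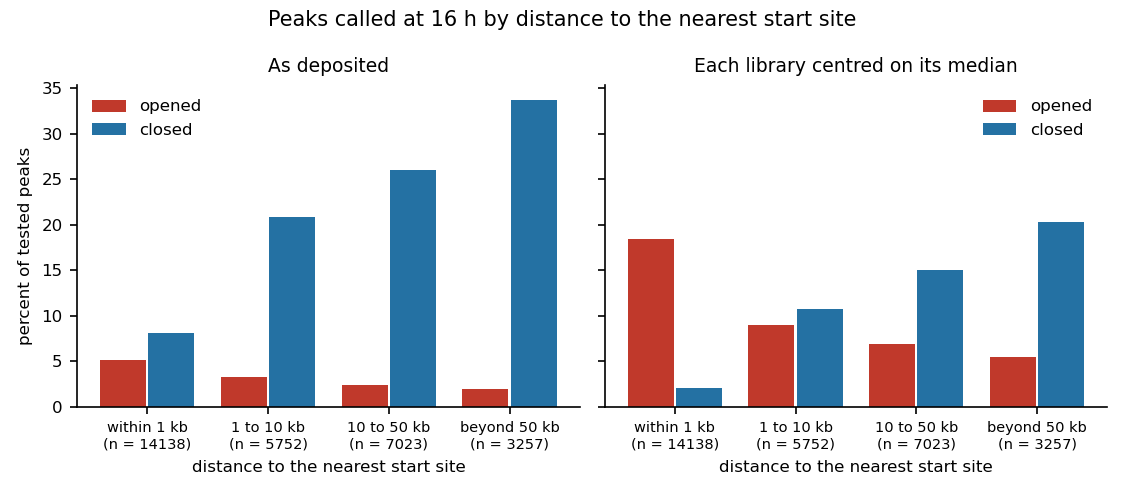
Share of tested macrophage peaks opened (red) and closed (blue) at 16 h, in percent, by distance to the nearest start site, as deposited (left) and after median centring (right). The number of peaks in each class stands under its bars; the closed share rises with distance in both panels, from 8.14% to 33.7% and from 2.04% to 20.3%.

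The largest openings lay at elements near genes of varied roles. Those named here passed without any overlap between fed and fasted mice, as did 654 opened (2.17%) and 3291 closed peaks (10.9%) in all. A peak 42219 bp upstream of Pik3cb, the p110-beta subunit of phosphoinositide 3-kinase, at chr9:99182330-99182530, held 24.7, 18.3, 14.9 and 17.1 normalized reads in fed mice and 104, 96.8, 49.1 and 41.6 in fasted mice. Fasted mice 1 and 2 were highest and all 4 stood above every fed mouse (log2 1.76 ± 0.23, SE; limma adjusted p = 6.54e-07). An intronic peak of Agfg2 rose from 28.3 ± 3.73 to 97.7 ± 38.4 (SD, n = 4), with fasted mouse 1 at 153. A peak 26577 bp upstream of Hilpda, which codes for a lipid droplet protein that restrains triglyceride breakdown, held 24.7, 36.6, 21.9 and 31.8 in fed mice against 103, 129, 40.1 and 41.6 in fasted mice. The 2 lower fasted mice stood close to the highest fed mouse there (log2 1.23 ± 0.26, adjusted p = 0.000846).

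A Nrg4 intron, in the gene of the epidermal growth factor family ligand neuregulin 4, rose from 12.7 ± 3.79 to 36.2 ± 18.3, with fasted mouse 1 at 63.4 and the others at 24.5 to 30.1. An element 50716 bp downstream of the start of Fos, the AP-1 subunit, rose from 7.57 ± 1.81 to 25.6 ± 13.8, both low levels. A Sgms1 intron, in the gene of a sphingomyelin synthase, rose by 1.30 ± 0.23 on the log2 scale. A peak upstream of Fcgr1, which codes for the high-affinity IgG receptor CD64, held 24.0, 26.4, 14.9 and 14.7 in fed and 63.4, 59.5, 28.6 and 40.1 in fasted mice (log2 1.16 ± 0.21, limma adjusted p = 0.000149). Its own promoter moved the other way, from 68 to 45.4 normalized reads. The remaining large openings lay near Mief1, Sh3pxd2b and Ddit4, in a Fat3 intron whose nearest start is that of Mtnr1b, and in a Man2a1 intron whose nearest start is that of Dreh, with log2 differences of 1.12 to 1.25. Most of these openings were not particular to 16 h. The Agfg2, Fos, Nrg4, Sgms1, Ddit4 and Dreh peaks were opened at 3, 8 and 24 h as well (at 24 h log2 1.71 at Sgms1 and 1.67 at Nrg4). Those of Hilpda, Mief1 and Sh3pxd2b were also opened at 24 h. Only the Pik3cb, Fcgr1 and Mtnr1b peaks passed at 16 h alone.

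The largest closures were mostly at intronic or distal elements. An intronic peak of Thsd4, at chr9:60187036-60187236, held 40.2, 39.6, 41.5 and 51.3 normalized reads in fed mice and 10.1, 7.17, 14.7 and 14.8 in fasted mice. The groups were far apart (log2 -1.76 ± 0.21, SE; limma adjusted p = 1.76e-07). A peak upstream of Stx16, which codes for a syntaxin of the trans-Golgi, held 59.5, 49.8, 48.5 and 41.5 in fed and 8.51, 20.1, 23.7 and 11.9 in fasted mice. A peak 47274 bp upstream of Creb1, the cyclic AMP response factor, fell from 56.1 ± 12.3 to 18.9 ± 8.83. Ccnd1, the G1 cyclin, had a far upstream peak that fell from 35.3 ± 4.95 to 13.6 ± 8.21, with fasted mice 1 and 2 at 5.41 and 7.89 and mice 3 and 4 at 18.8 and 22.3. A nearer Ccnd1 peak, 1770 bp upstream, fell from 131 ± 9.45 to 77.5 ± 13.7. Peaks at Dynlrb2, Fam181b, Psg16, Erich5, Adgrg3, Btbd3, Sf3b5 and the Cryba4 promoter fell by 1.32 to 1.65 on the log2 scale. All of the closures named here were closed at 24 h too. Some had a larger log2 difference then (Dynlrb2 -1.99, Erich5 -1.625 and Cryba4 -1.38).

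**Figure D3:**
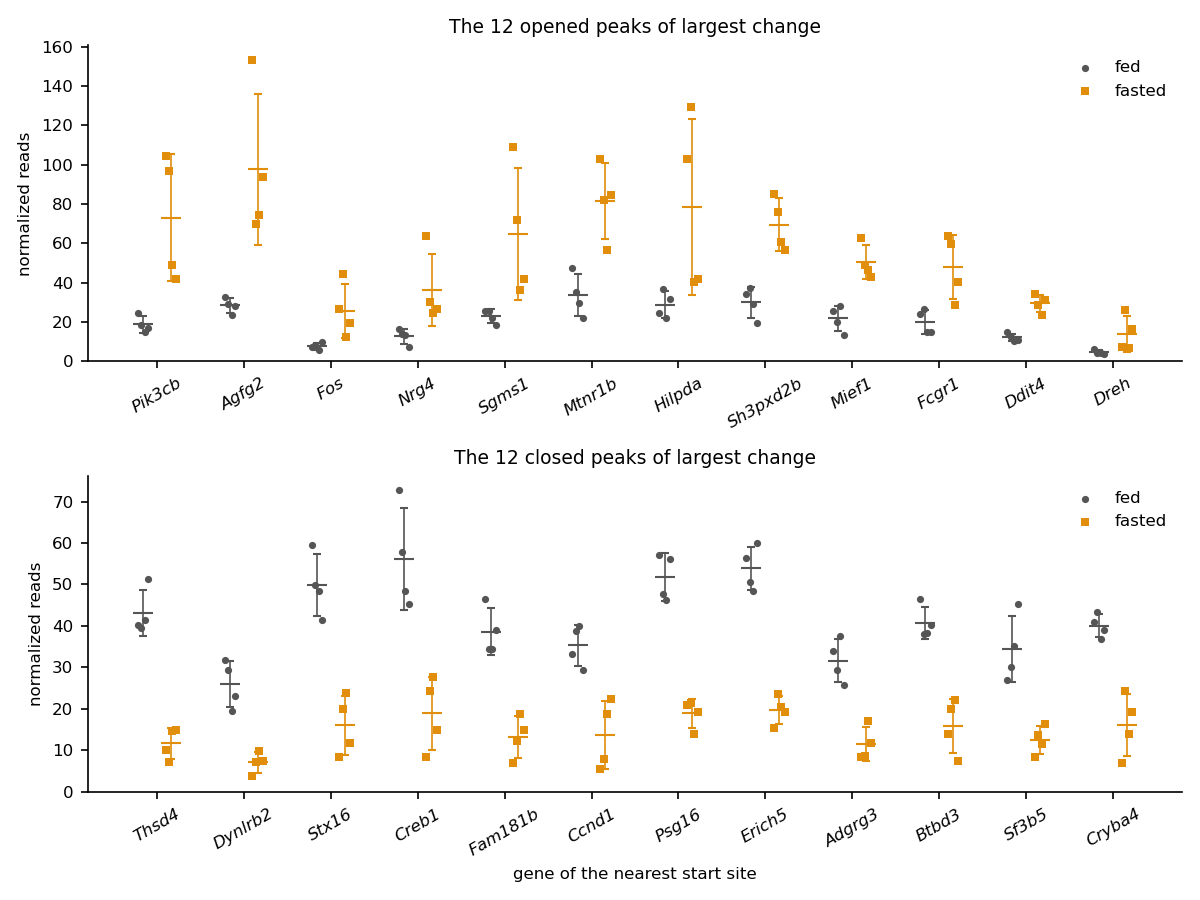
Normalized reads (y axis) in each of the 4 fed (grey circles) and 4 fasted (orange squares) mice at 16 h for the 12 opened (top) and 12 closed (bottom) peaks of largest log2 difference, 1 peak per gene, among peaks whose groups do not overlap. Predicted genes are passed over, and bars show the mean and SD. The spread among fasted mice is wide at Pik3cb (41.6 to 104) and Agfg2, and narrow at Ddit4 and Psg16.

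At a few genes several peaks were called in the same direction. These genes were picked for having the most opened or most closed peaks, so high counts follow from the pick. It also favours genes with many peaks. Of all peaks within 50 kb of a start site, 4.02% were opened and 15.5% closed (13.4% and 7.29% after centring). Kdm6b, a histone H3 lysine 27 demethylase, had 4 of 16 peaks within 50 kb opened, Mnt, a MAX-binding repressor, 4 of 12, Klf9 4 of 9 with 1 closed, Armc12 4 of 7 and Arrdc2, an arrestin-domain gene, 4 of 6. On the closed side, Rxra, the partner receptor of PPARs and LXRs, had 8 of 21 peaks closed and 1 opened. The strongest of them lies in a Rxra intron and fell from 53.9 ± 2.06 to 29.3 ± 10.7, with fasted mouse 1 lowest at 13.9. Ly6e had 8 of 18 peaks closed, Rnf145, a sterol-sensing ubiquitin ligase, 7 of 9, Pld1, a phospholipase D, 7 of 9 and Chd9 7 of 18 with 1 opened. After centring the closed counts were 6 for Rxra, 6 for Ly6e, 5 for Rnf145, 3 for Pld1 and 7 for Chd9.

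Lists of genes with a shared role were read against all peaks within 50 kb of a start site, of which 4.02% were opened and 15.5% closed as deposited, and 13.4% and 7.29% after centring, with a median log2 difference of -0.09. Peaks of a list share genes, so the counts are descriptions. The background was not matched to any list in level or distance, with which calls went as shown above. Its median level was 62.4 normalized reads, against 154 for the clock list and 41.5 for the interferon list. The part of level and distance in the list shares was not tested. Named list peaks beyond the strongest pair of each list were picked after their values were seen. Fasted mouse 1 stood apart from the other libraries, so counts without it are given beside each list; the background was then 2.47% opened and 9.21% closed, and 7.26% and 4.11% after centring. The plot of list shares gives both scalings.

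Interferon response genes stood at the closed end. Of 70 peaks near 23 such genes, 23 were closed (32.9%) and 1 opened (1.43%), and 15 were closed and 5 opened after centring; their median log2 difference was -0.22. Without fasted mouse 1, 14 were closed and 1 opened (9 and 2 after centring). Gbp3, a guanylate-binding protein that attacks intracellular pathogens, had a peak 10532 bp downstream of its start with 29.4, 34.5, 32.1 and 39.1 normalized reads in fed and 10.8, 18.6, 17.2 and 11.9 in fasted mice. Every fasted mouse was below every fed mouse (log2 -1.13 ± 0.19, SE; limma adjusted p = 5.36e-05). The promoter of Xaf1, an interferon-induced promoter of apoptosis, held 74.2, 61.6, 69.6 and 61.1 against 34.0, 38, 45.8 and 40.1 (log2 -0.73 ± 0.13, adjusted p = 0.000137). Promoters of the antiviral GTPase Mx1 (100 to 62.2), the ISG15 protease Usp18 (156 to 114), Isg15 itself (42.0 to 25.9) and the signalling factor Irf9 (101 to 72.9) also fell. The 1 opened peak was the promoter of Irf1, an IRF that also answers to inflammatory signals, which rose from 31.9 to 50.9. The promoter of the RNA sensor Ifih1 stood at 90.5 ± 5.39 and 91.3 ± 12.7.

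Genes of alternative activation and cytokine control also had more closed than opened peaks, 20 of 69 closed (29.0%) with 1 opened and a median of -0.24, and 12 were closed and 7 opened after centring. Without fasted mouse 1, 10 were closed and 1 opened (7 and 4 after centring). Il1rn, the interleukin 1 receptor antagonist, held 53.4, 47.6, 54.8 and 59.9 in fed and 24.8, 38, 27.0 and 41.6 in fasted mice (log2 -0.71 ± 0.15, limma adjusted p = 0.000883). Stat6, the interleukin 4 signal transducer, fell from 60.9 ± 3.57 to 36.8 ± 10.5. Peaks at the mannose receptor Mrc1, at Retnla and at Irf4 closed with them, while 1 Stat3 peak opened (127 to 158). Chemokine and chemokine receptor genes had shares near the background. Of their 64 peaks, 12 were closed (18.8%, beside 15.5%) and 3 opened (4.69%, beside 4.02%). After centring 6 were closed (9.38%, beside 7.29%) and 8 opened (12.5%, beside 13.4%). There were 5 closed and 4 opened without fasted mouse 1 (4 and 6 after centring). The closed ones with all mice included peaks at Cxcl1, a neutrophil attractant (40.4 ± 3.14 to 22.4 ± 6.34), and at the chemokine receptor gene Ccr1 (86.4 ± 12.1 to 60.1 ± 5.08). The Cxcr4 peak in the opposite direction rose from 19.1 to 36.8. Of 110 peaks at NF-kB and inflammation genes, 6 were opened (5.45%) and 8 closed (7.27%), with 22 and 2 after centring. Without fasted mouse 1 these counts were 3 and 2 (10 and 0 after centring). Nfkbia, the inhibitor of NF-kB, rose from 26.5 ± 5.93 to 45.8 ± 10.8 at a downstream element, and the Tlr4 promoter, that of the endotoxin receptor, fell from 144 ± 15.5 to 102 ± 13.1. After centring the Tlr4 call was lost without fed mouse 1 (log2 -0.29) or fasted mouse 1 (-0.31), and that of Ccr1 without fed mouse 2 (-0.29). Antigen presentation genes had 1 opened (2.08%) and 3 closed (6.25%) of 48, with 3 and 2 after centring. Without fasted mouse 1 these counts were 1 and 2 (2 and 2 after centring). Both strongest closures lay at Cd86, a co-stimulator of T cells.

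Kupffer cell genes had many closed peaks. Of 80 peaks near 15 markers of Kupffer cells, 28 were closed and 3 opened, with 15 and 8 after centring and a median log2 difference of -0.29. Without fasted mouse 1, 19 were closed and 1 opened (8 and 5 after centring). Clec4f, a lectin made by Kupffer cells, had 11 peaks, of which 8 were closed and none opened (6 and 0 after centring). Some of the closed Clec4f peaks overlap each other. The strongest of them, 3407 bp upstream, held 50.3, 44.7, 32.9 and 47.7 in fed and 17.8, 24.4, 25.4 and 20.8 in fasted mice (log2 -0.92 ± 0.17, SE; limma adjusted p = 0.000141), with no overlap between fed and fasted mice. Pan-macrophage markers had 11 closed (15.3%, near the 15.5% of the background) and 1 opened of 72 peaks, with closures at C1qa, Adgre1, Csf1r, Maf and Spi1. After centring 9 were closed (12.5%, beside 7.29%) and 2 opened. Without fasted mouse 1 there were 9 closed and 1 opened. With centring as well, 3 were closed (4.17%, beside 4.11%) and 2 opened. As deposited, where each fasted library also had a lower median over all peaks, the Kupffer list summed to 5269 to 5834 normalized reads in fed mice and to 4518 to 5213 in fasted mice, without overlap. The macrophage list summed to 5472 to 5682 and 4443 to 5494, ranges that overlap. All 15 Kupffer markers, among them Xcr1, whose 3 peaks also count in the dendritic cell list, and all 16 macrophage markers had peaks. By contrast, 14 of 17 hepatocyte markers, Alb, Apoa1 and Hnf4a among them, had no peak within 50 kb in this table. The 9 peaks at the other 3 summed to 510 to 572 in fed and 490 to 597 in fasted mice, ranges that overlap. Of 12 sinusoidal endothelial peaks 3 were closed, and their sums were 545 to 585 and 383 to 585. Monocyte and neutrophil markers had 2 opened and 4 closed of 16 peaks, dendritic cell markers 1 and 5 of 20, cholangiocyte markers 0 and 2 of 2, and stellate cell and lymphocyte markers 0 calls among 3 and 9. After centring the endothelial list had 0 opened and 2 closed, the monocyte and neutrophil list 4 and 2, the dendritic cell list 3 and 1, and the cholangiocyte list 0 and 0. The hepatocyte list had 0 opened and 1 closed, and 1 and 0 after centring, and 1 peak each of the stellate cell and lymphocyte lists was opened after centring. The dendritic cell list had 1 opened and 1 closed without fasted mouse 1, the endothelial list 0 and 1, and the monocyte and neutrophil list 3 and 2. The part of a changed mix of nuclei in the macrophage and Kupffer counts was not tested.

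Metabolic lists differed in their shares, and some lay near the background (15.5% closed as deposited and 7.29% after centring). Cholesterol synthesis genes had 10 of 37 peaks closed (27.0%) and 0 opened, with 4 closed (10.8%) and 1 opened after centring. Without fasted mouse 1 they had 8 closed and 0 opened. With centring as well, 2 were closed (5.41%, beside 4.11% of the background) and 0 opened. Insig1, the sterol-sensing anchor of SREBP processing, had an upstream peak at 54.9, 87.2, 73.5 and 75.8 in fed and 28.6, 48.8, 36.8 and 35.6 in fasted mice (log2 -0.93 ± 0.15, SE; limma adjusted p = 2.92e-05). The promoter of Cyp51, a sterol demethylase, held 194 to 201 in fed and 122 to 165 in fasted mice, though its call was lost after centring when fasted mouse 2 was left out (log2 -0.24). Fatty acid and triglyceride synthesis genes had 8 of 38 closed (21.1%) and 0 opened, or 3 (7.89%) and 0 after centring. Without fasted mouse 1 these counts were 5 and 0 (2 and 0 after centring). The list was led by the desaturases Scd1 (59.9 ± 8.25 to 35.9 ± 6.68) and Scd2 (97.7 ± 4.79 to 65.9 ± 8.57). Fatty acid oxidation and ketone use stood at the other end, with 5 of 43 opened (11.6%) and 1 closed (12 and 1 after centring), or 3 and 1 without fasted mouse 1 (6 and 0 after centring). Plin2, a lipid droplet coat protein, held 63.4, 65.2, 59.5 and 64.8 near its promoter in fed mice and 168, 123, 97.3 and 95.0 in fasted mice (log2 0.87 ± 0.13, adjusted p = 8.44e-06), without overlap.

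Glycolysis and hypoxia genes had 15 of 70 peaks closed (21.4%) and 2 opened, but 11 and 11 after centring, or 11 closed and 1 opened without fasted mouse 1 (8 and 4 after centring). Hk2, the inducible hexokinase, carried 2 neighbouring upstream peaks that overlap each other. The stronger held 68.0, 63.8, 71.2 and 66.0 in fed and 20.1, 35.1, 41.7 and 32.7 in fasted mice (log2 -1.05 ± 0.16, SE; limma adjusted p = 8.06e-06). Peaks at Hif1a, Slc2a1 and Ldha closed too, and a promoter peak of the aldolase gene Aldoa opened (70.1 to 110). Insulin and FOXO genes had 11 closed (15.7%, near the 15.5% of the background) and 3 opened of 70 (8 and 10 after centring). Without fasted mouse 1 these counts were 10 and 1 (1 and 4 after centring). Akt2, the kinase downstream of the insulin receptor, fell from 75.9 ± 9.53 to 41.8 ± 8.54 near its promoter, and a peak of Insr, the receptor itself, 28329 bp downstream of its start from 64.6 ± 6.15 to 40.7 ± 10.3, a call lost after centring without fasted mouse 1 (log2 -0.36). Lipid uptake and cholesterol export genes were mixed, with 7 opened and 14 closed (13.5%) of 104 (17 and 7 after centring). Without fasted mouse 1 these counts were 4 and 7 (9 and 3 after centring). Apoc1 and Apoe promoter peaks opened (Apoc1 210 ± 23.4 to 280 ± 22.5), and peaks at the scavenger receptors Scarb1 and Msr1 closed (Scarb1 40.2 ± 7.89 to 22.2 ± 8.21).

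Iron, haem and oxidative stress genes had 10 of 89 peaks opened (11.2%) and 13 closed (14.6%, near the 15.5% of the background). After centring 19 were opened and 6 closed (6.74%, beside 7.29%). Without fasted mouse 1 there were 6 opened and 7 closed (13 and 1 after centring). Hmox1, the haem-degrading oxygenase, had 2 overlapping upstream peaks, the stronger at 162, 182, 166 and 180 in fed and 255, 220, 202 and 263 in fasted mice (log2 0.44 ± 0.08, SE; limma adjusted p = 0.000272). Ferritin genes Ftl1 and Fth1 and the haem transporter Slc48a1 opened with it, whereas Bach1, the haem-sensing repressor, and the iron exporter Slc40a1 had closed peaks. Integrated stress response genes had 5 opened (12.8%) and 6 closed (15.4%, near the 15.5% of the background) of 39, with 10 and 2 after centring. Without fasted mouse 1 these counts were 4 and 2 (7 and 1 after centring). The opened ones with all mice were at Ddit3, Slc3a2, Sesn2, Hspa5 and Atf4. The Ddit3 promoter, that of the stress factor CHOP, held 363, 435, 416 and 424 in fed and 507, 482, 472 and 551 in fasted mice, a small change without overlap (log2 0.29 ± 0.06, adjusted p = 0.000231). Autophagy and lysosome genes had 3 opened (3.45%, beside 4.02% of the background) and 5 closed (5.75%, beside 15.5%) of 87, with 17 and 3 after centring. Without fasted mouse 1 these counts were 3 and 1 (10 and 1 after centring). The majority as deposited, on few calls, thus changed side with centring and also without that mouse. Tfeb, a master factor of lysosome genes, rose from 24.5 ± 2.94 to 49.2 ± 12.8 at an element 18471 bp from its annotated start, while 2 peaks at its promoter closed (83.2 to 64.7 and 141 to 118), calls that were both lost after centring (adjusted p = 0.149 and 0.385). Ribosome and translation genes had 6 opened and 1 closed of 44 (17 and 0 after centring), or 3 and 0 without fasted mouse 1 (9 and 0 after centring), and 3 of the 6 opened peaks lay at Eef1a1. Cell cycle genes had 4 opened (6.78%) and 15 closed (25.4%) of 59. After centring 6 were opened and 5 closed (8.47%, near the 7.29% of the background). Closures lay at Ccnd1, Ccnd3, Cdk6 and Myc, the last lost after centring (adjusted p = 0.0686). The list had 3 opened and 8 closed peaks without fasted mouse 1 (4 and 4 after centring).

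Clock genes had 6 of 44 peaks opened (13.6%) and 4 closed, with 23 and 3 after centring and a median log2 difference of 0.07. Without fasted mouse 1 they had 5 opened and 3 closed (7 and 3 after centring). Promoter peaks of Per1, Per3, Nr1d1, Nr1d2 and Tef opened, by 0.23 to 0.27 on the log2 scale, and peaks at Clock, in Nr1d2 and of Arntl, the core activator BMAL1, closed, the one at Clock not after centring (adjusted p = 0.214). The Arntl peak 27012 bp upstream held 69.6, 60.8, 68.8 and 48.9 in fed and 18.6, 37.3, 35.2 and 26.7 in fasted mice (log2 -1.06 ± 0.18, SE; limma adjusted p = 5.62e-05). Of 123 peaks at immediate early and AP-1 genes, 11 were opened and 12 closed (29 and 6 after centring), or 8 and 8 without fasted mouse 1 (19 and 2 after centring), with openings at Junb, Jund and Fos and closures at Nr4a1, Klf6 and Egr3. Glucocorticoid response genes had 16 opened (11.6%) and 13 closed (9.42%) of 138, with 31 and 5 after centring and a median of -0.02, or 13 opened and 5 closed without fasted mouse 1 (23 and 2 after centring). Klf9, a Kruppel-like factor induced by glucocorticoids, held 54.9, 52.8, 43.8 and 52.5 at an element 5699 bp upstream in fed mice and 71.2, 64.5, 72.8 and 92.1 in fasted mice (log2 0.53 ± 0.12, adjusted p = 0.00143). Dusp1, Tsc22d3, Mt1 and Ddit4 peaks opened as well, while peaks at Cd163, Mertk, Rgs2 and Fkbp5 closed, that at Fkbp5 not after centring (adjusted p = 0.066).

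**Figure D4:**
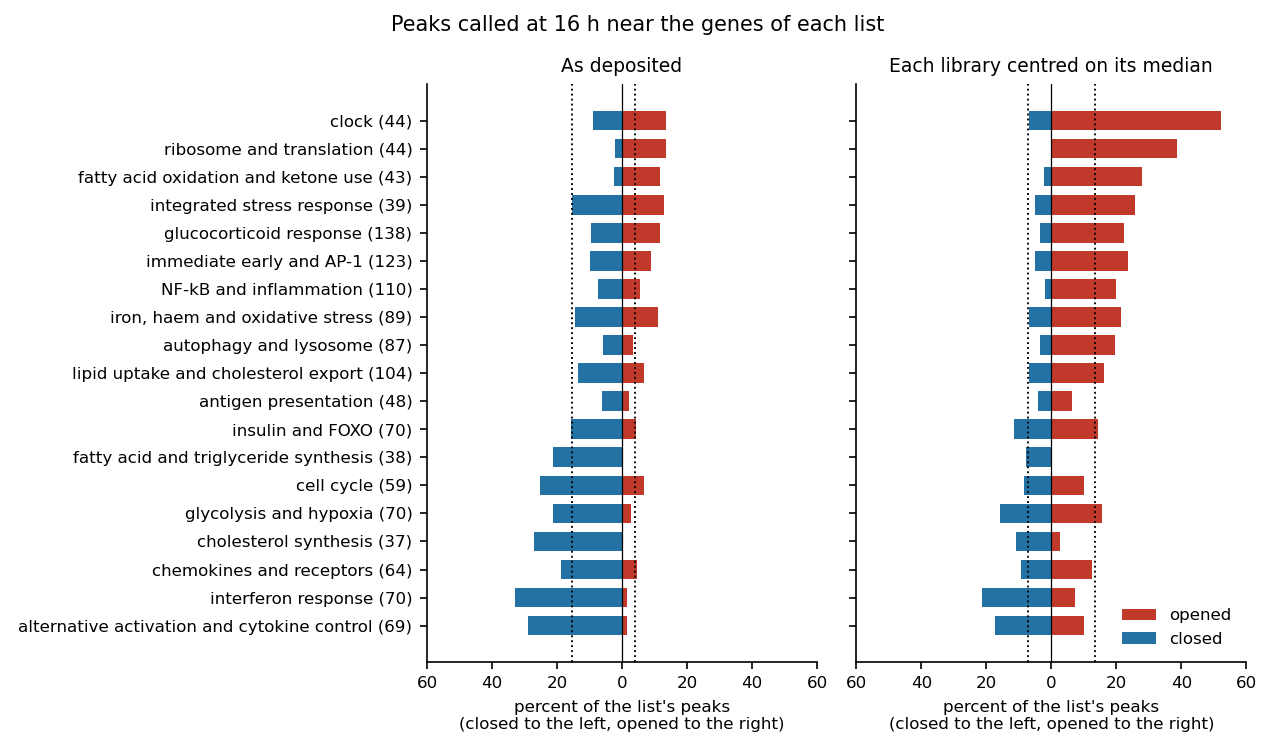
Share of the peaks near the genes of each of 19 lists that were opened (red, to the right) and closed (blue, to the left) at 16 h, in percent of the list's peaks, whose number is in brackets, as deposited (left) and after median centring (right). Dotted lines mark all peaks within 50 kb of a start site (4.02% and 15.5%, then 13.4% and 7.29%), not matched to the lists in level or distance. The interferon list has 32.9% closed as deposited and 21.4% after centring, against 9.09% and 6.82% for the clock list.

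The 16 h effect was then set against the effects at 3, 8 and 24 h, each with its own fed mice, by testing the difference between the effects. Hours of fasting and time of day (ZT 15, 20, 4 and 12) cannot be told apart across times. The effect at 16 h was above that at 3 h at 253 peaks (0.839%) and below it at 1803 (5.98%), above that at 8 h at 61 (0.202%) and below at 159 (0.527%), and above that at 24 h at 19 (0.063%) and below at 100 (0.331%). After centring these counts were 1025 and 853, 117 and 181, and 46 and 109, so the majority against 3 h changed side. Calls at the other times were 506 opened (1.68%) and 42 closed (0.139%) at 3 h, 493 (1.63%) and 1497 (4.96%) at 8 h, and 905 (3.0%) and 2497 (8.28%) at 24 h. Of the peaks opened at 16 h, 67 were opened at 3 h, 124 at 8 h and 266 at 24 h (5.86, 10.8 and 23.3% of the 1144, and 13.2, 25.2 and 29.4% of the opened peaks at those times). Of those closed at 16 h, 17, 730 and 1418 were closed at these times (0.323, 13.8 and 26.9%), and these are 40.5, 48.8 and 56.8% of the closed peaks at those times. Although 811 opened and 3455 closed peaks were called at 16 h alone, the test of the difference placed 2 and 14 of them apart from all 3 other times. Single mice moved these totals too: without fasted mouse 1, 1102 peaks differed from 3 h and 128 from 8 h, and without fed mouse 1, 1291 differed from 3 h. The total against 8 h was 145 without fed mouse 3, 334 without fasted mouse 2 and 415 without fasted mouse 3, and that against 24 h was 78, 74, 196 and 195 without fed mice 2 and 3 and fasted mice 2 and 3.

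At 53 peaks near 47 genes the 16 h effect differed from all 3 others, and at 51 of them it lay below all 3; the 3 tests share the 16 h mice. Of these 51, 36 were opened at 3 h, 27 at 8 h and 31 at 24 h, whereas at 16 h 0 were opened and 32 were closed (23 after centring). Their median log2 differences were 0.88, 0.56, -0.57 and 0.59 at 3, 8, 16 and 24 h. The 51 were picked for a 16 h effect below the others, so a lowest value at 16 h follows from the pick. The same pick favours openings at 3, 8 and 24 h and closures at 16 h. Their counts are therefore no independent comparison with the shares of all peaks. Over all peaks 1.68, 1.63 and 3.0% were opened at 3, 8 and 24 h. At 16 h 3.79% were opened and 17.5% closed (8.7% closed after centring). Ddit4, an mTORC1 inhibitor and a classical glucocorticoid target, had 1 of the 51. This peak, 23146 bp upstream at chr10:59974816-59975016, held 3.09, 2.93, 4.69 and 6.11 normalized reads in fed and 3.09, 3.59, 8.99 and 7.43 in fasted mice at 16 h, overlapping groups at a low level (log2 0.28 ± 0.28, SE; limma adjusted p = 0.503). Fasted mice held 82.5 ± 26.2 against 5.17 ± 0.90 in fed mice at 3 h, 80.6 ± 19.2 against 5.22 ± 1.84 at 8 h and 101 ± 16.5 against 24.8 ± 16.4 at 24 h. The 16 h effect was lower than that at 3 h by a log2 difference of -3.24 ± 0.39 (adjusted p = 4.17e-07), than that at 8 h by -3.24 ± 0.39 (adjusted p = 1.73e-06) and than that at 24 h by -1.85 ± 0.39 (adjusted p = 0.0144). A second Ddit4 element, 13310 bp upstream, opened at 16 h too, from 12.1 ± 1.98 to 29.4 ± 4.38, and the difference between its 16 h effect and those at 3, 8 and 24 h did not pass (-1.11 ± 0.42, -1.36 ± 0.42 and -1.21 ± 0.42, adjusted p = 0.0947, 0.112 and 0.231).

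Both peaks named for Tulp1 lie in introns of Fkbp5, the immunophilin co-chaperone that limits glucocorticoid receptor activity. The one 55107 bp from the Tulp1 start held 15.5, 17.6, 12.5 and 11.0 in fed and 5.41, 7.17, 8.99 and 13.4 in fasted mice at 16 h (log2 -0.62, limma adjusted p = 0.0528), with fasted mouse 4 inside the fed range. At 3 h the means were 17.8 fed and 101 fasted, and at 24 h 60 and 109. Hif3a, a hypoxia factor gene induced by glucocorticoids, had an intronic peak, 1651 bp from the nearest annotated start, at 43.9 ± 5.70 and 49.9 ± 5.34 in fed and fasted mice at 16 h, against 45 ± 6.01 and 222 ± 46.9 at 3 h and 126 ± 50.9 and 265 ± 12.4 at 24 h. A distal Fosl2 element was opened at 3, 8 and 24 h (log2 0.88, 0.69 and 1.21) and closed at 16 h (-0.66, adjusted p = 0.0257), a closure that was lost after centring (adjusted p = 0.0965). Across the glucocorticoid list, 35, 31, 16 and 35 of 138 peaks were opened at 3, 8, 16 and 24 h and 0, 3, 13 and 7 closed, and the 16 h effect was below the 3 h effect at 22 of them, below the 8 h effect at 8 and below the 24 h effect at 1. Over all peaks 1.68, 1.63, 3.79 and 3.0% were opened at these times, and the 16 h effect was below the others at 5.98, 0.527 and 0.331%. After centring, 34, 43, 31 and 48 list peaks were opened (1.68, 3.83, 12.5 and 7.52% of all peaks), and 15, 8 and 1 had the lower effect at 16 h. Of the 70 interferon list peaks, 0, 8, 23 and 32 were closed at 3, 8, 16 and 24 h, beside 0.139, 4.96, 17.5 and 8.28% of all peaks. After centring these were 1, 2, 15 and 27, beside 0.209, 1.93, 8.7 and 5.3% of all.

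At some opened peaks the 16 h effect exceeded that at 1 or more other times. The promoter of Tspan4, a tetraspanin, was 1 of the 2 peaks whose effect exceeded all 3 others, at log2 differences of -0.17, 0.04, 0.67 and -0.0021 over the 4 times. The Pik3cb element had effects of 0.15, 0.44, 1.76 and 0.60, above those at 3 h (limma adjusted p = 0.00103) and 8 h (0.0285) but not apart from that at 24 h (0.094; 0.0476 after centring). The Plin2 peak had 0.22, 0.49, 0.87 and 0.07, above 3 h (adjusted p = 0.0226) and 24 h (0.0275) but not apart from 8 h (0.385), when it was opened too (adjusted p = 0.0155). A peak near Chst14, a dermatan sulphotransferase, held 34.8, 41.8, 41.5 and 31.8 in fed and 68.8, 71.0, 65.4 and 63.9 in fasted mice, and its effect exceeded that at 3 h by 1.26 ± 0.22 (adjusted p = 0.000252) and that at 8 h by 1.04 (0.00906). It was opened at 24 h too (log2 0.49, adjusted p = 0.0314), and the 16 and 24 h effects were not told apart (0.623). Among closures, the Clec4f upstream peak had effects of 0.37, -0.0027, -0.92 and -0.51, lower at 16 h than at 3 h (adjusted p = 0.000418) and 8 h (0.0462) but not apart from 24 h (0.538), when it was closed too (0.0403). The Hk2 peak described above was also lower than at 3 h (adjusted p = 0.000791) and 8 h (0.0316) but not apart from 24 h (0.211).

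**Figure D5:**
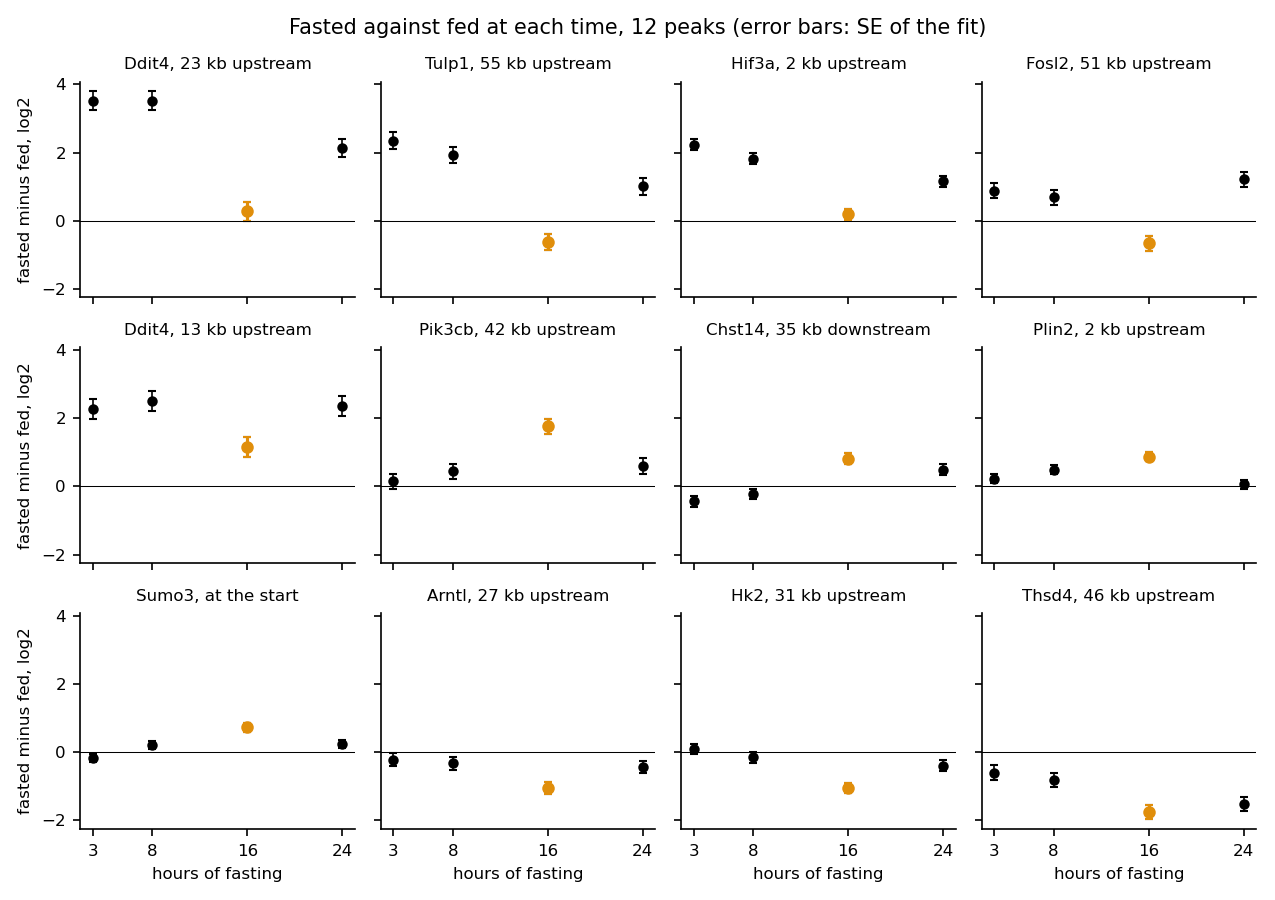
Fasted minus fed difference (y axis, log2, with the SE of the fit) at 3, 8, 16 (orange) and 24 h of fasting (x axis) for 12 macrophage peaks picked after their values were seen. The Ddit4 peak 23 kb upstream goes from 3.52 at 3 h to 0.28 at 16 h and 2.13 at 24 h. Pik3cb is highest at 16 h (1.76) and Thsd4 lowest (-1.76, with -1.53 at 24 h). As deposited, neither was told apart from its 24 h effect (limma adjusted p = 0.094 and 0.842).

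Hepatocyte nuclei of other fasted and fed mice at 16 h were set side by side, without a test between the tables, which were normalized separately. In hepatocytes 19.0% of peaks were opened and 12.8% closed. A hepatocyte peak overlapped (by at least 1 bp) 893 of the 1144 opened macrophage peaks (78.1%), 947 of the 5271 closed and 12296 of the other 23755 (51.8%). Of the 893 opened macrophage peaks with such an overlap, 55.7% were opened and 0 closed in hepatocytes, beside 20.7% and 1.85% of all overlapping pairs. Of the 947 closed ones, 2.96% were opened and 11.5% closed. After centring the hepatocyte libraries, 42.4% of the 893 were opened (12.5% of all pairs) and 15.0% of the 947 closed (2.47%). Most pairs lay within 1 kb of a start site, 695 of the 893 and 11415 of all 14136. As deposited, 5.71% of closed macrophage peaks there were closed in hepatocytes, beside 0.859% of all. Beyond 1 kb 28.0% were, beside 5.99%. The shared openings included Agfg2 (log2 1.65 in macrophages, 1.05 in hepatocytes), Neurl4 (0.61 and 1.09), Prdx1 (0.48 and 0.71), Plin2 (0.87 and 0.59) and Hmox1 (0.44 and 0.54), and the shared closures Insig1 (-0.93 and -1.67) and Cyp51 (-0.48 and -0.51). The Klf9 element (0.53 and 0.15) and the Ccnd1 peak near its promoter (-0.75 and 0.30) passed in macrophages and not in hepatocytes, a difference that was not tested. As given above, most hepatocyte markers had no peak in the macrophage table, and the part of hepatocyte chromatin in the shared openings was not tested.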

How the data were processed

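Each macrophage library comes from the liver of 1 mouse. Per the labels' protocols, tagged nuclei were bound to beads and transposed, and the libraries were sequenced paired-end, macrophage libraries in 2 runs that the deposited table joins to 1 column per mouse in a way not given in the sources used here. The submitters' processing notes name BWA 0.7.5a-r405, SAMtools, HOMER, DESeq2 and the mm10 build. The table holds, as deposited signal values, reads per 201 bp peak that the authors divided by 1 factor per library: all values were whole reads times that factor within 0.01 read, and the recovered reads served edgeR and DESeq2. The table also holds the authors' log2 fold changes and the authors' adjusted p-values, used in 1 count and named there.

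The main test was limma 3.58.1 (R 4.3.3, edgeR 4.0.16 and DESeq2 1.42.0 as alternatives) on log2(normalized reads + 2), with a trended prior variance, 8 group means over 32 macrophage mice and Benjamini-Hochberg adjustment over all 30170 peaks; all passed the minimum mean of 10 normalized reads, and 12 peaks per direction were taken as largest. Adjusted p-values here are limma's unless another tool is named. Fold changes are on that log2 scale and understate low peaks. Median centring set each library's median log2 value to 1 common level. Reads in peaks were 1729720 to 4637873 per macrophage mouse. On simulated reads the fit recovered most changes of 2-fold. Those reads had the same spread setting for all peaks, no shift of library medians and no outlying mouse. The simulation therefore cannot show how scaling or single mice move the counts.

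Members, gene lists and tests were chosen with earlier results of these data known. A list takes peaks whose nearest gene is a member within 50 kb. Named peaks are the 12 largest opened and 12 largest closed without overlap of mice (1 per gene), the 2 passing peaks of smallest p in each of 19 function lists, the strongest peak of the 6 genes with most opened and most closed peaks, and up to 3 peaks per direction that differ most clearly from each other time, which gave 87; 9 predicted genes were passed over. Other peaks named were chosen after their values were seen. Distal sequence was not analysed here; promoter words were searched in peaks inside RefSeq GRCm38.p6 windows, a scan chosen after values were seen, with these words: glucocorticoid receptor ACANNNTGT, AP-1 TGANTCA, PU.1 GAGGAAGT, C/EBP TTGCNNAA, E-box CACGTG, FOX TGTTTAC, NF-kB GGGANTTTC, IRF AAANNGAAA, MAF TGCTGANTC, STAT TTCNNNGAA, DR1 GGTCANAGG, RORE TAGGTCA, SP and KLF GGGCGG. The AP-1 word can lie inside a MAF site. Plots used Python 3.11.15, numpy 2.4.6, pandas 2.3.3 and matplotlib 3.10.9.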

Additional observations from a re-analysis of the deposited data

Results flagged for a closer look

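At 8 of 174 groups of 4 mice examined among the named peaks, 1 mouse stood apart from the other 3 by Dixon's criterion, which chance meets in about 1 group of 20. In fed mice these were Tfeb in mouse 1 (20.1 normalized reads, others 25.66 to 26.39), Arrdc2 in mouse 4 (220, others 247.7 to 250.4), Scd2 in mouse 2 (104.8, others 94.67 to 95.88), the Ccnd1 peak 1770 bp upstream in mouse 2 (116.5, others 134.5 to 136.9) and Thsd4 in mouse 4 (51.32, others 39.58 to 41.47). In fasted mice they were Nrg4 in mouse 1 (63.42, others 24.53 to 30.12), Wasf2 in mouse 2 (23.67, others 11.6 to 12.27) and Stat6 in mouse 2 (52.35, others 29.39 to 32.71).

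The effect at 16 h differed from that at another time by the test of the difference at these peaks. Above the 3 h effect were Chst14 (by 1.257 on the log2 scale), Sumo3 (0.894) and Neurl4 (0.916), above the 8 h effect Eef1a1 45866 bp upstream (1.138), B3gnt8 (1.458) and Cldn14 (1.452), and above the 24 h effect Prdx1 (0.5923), Gzf1 (0.7376) and Ifih1 (0.7617). Below the 3 h effect were Hif3a (-2.052) and the Tulp1 peaks in Fkbp5 introns 42864 bp (-1.731) and 55107 bp (-2.974) from the Tulp1 start. Below the 8 h effect were Ddit4 23146 bp upstream (-3.24), Hif3a (-1.634) and the Tulp1 peak at 55107 bp (-2.547), and below the 24 h effect Wasf2 (-1.78), Ccny (-1.723) and Fosl2 (-1.873).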

How the results depend on the processing

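The 1144 opened and 5271 closed peaks moved with scaling, tool and samples. Opened peaks numbered 3779 after median centring, 4177 with centring and the library set block, 1876 after quantile normalization, 2939 with edgeR, 2228 with DESeq2, 512 with the 16 h mice alone and 203 at a change of at least 1.5-fold. Closed peaks numbered 2625, 2794, 2159, 2754, 2001, 2879 and 2146 in the same order, and 2421 at a mean of at least 50 normalized reads, where fewer peaks were tested. Leaving out 1 mouse gave 714 to 4188 opened and 1501 to 6132 closed peaks over both scalings. For the 2056 peaks that differed from 3 h, the number was 1035 after quantile normalization, 941 at a mean of at least 50 and 1175 with DESeq2, and 907 to 2980 without 1 mouse. The 220 against 8 h became 73 at a mean of at least 50, 129 without a variance trend, 342 with reads in peaks as covariate and 369 with centring and the library set block, and 128 to 471 without 1 mouse. The 119 against 24 h became 28, 61 (no trend), 211 (centring and block) and 47 (DESeq2), and 74 to 231 without 1 mouse. Beyond fewer peaks or mice tested, the cause was not tested.

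Of the 81 named peaks that passed, 72 passed under every alternative that tested them: 34 under all 29, and 38 under 28, being too low for the minimum mean of 50. None of the 81 changed sign. The others, Armc12, B3gnt8, Ccny, Ccr1, Cyp51, Fosl2, Insr, Tlr4 and the Tulp1 peak at 42864 bp, each lost the call in at least 1. Among peaks that did not pass, Wasf2 turned to 0.13 after quantile normalization and Ifih1 to -0.014 with reads in peaks as covariate and to -0.0036, -0.031 and -0.084 without fed mouse 2, fed mouse 3 and fasted mouse 3; without 1 mouse, over both scalings, Ifih1 ranged from -0.084 to 0.22. No paired analysis was possible because the labels give no shared replicate numbers. Sets of library numbers as a block gave 1299 opened and 5685 closed peaks and ended no call among the named peaks. Centring with the block and centring with left-out mice were added after seeing the data. Low peaks, such as Ddit4 23146 bp upstream at under 10 normalized reads, carry the widest counting error.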
